A study of Mus musculus with 12 samples.

Results

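The transcripts examined here were those of 33 genes that the transcription factor p53 is known to activate, found in both count tables by gene symbol among 55487 gene identifiers. They were sorted by role into 6 genes of feedback on p53 and its cofactors, 8 of cell cycle arrest, mitosis and growth restraint, 11 of apoptosis, 5 of DNA repair, and 3 others. RNA was sequenced from OT-1 CD8+ T cells, taken from mice with a transgenic T cell receptor that recognizes an ovalbumin peptide. The 12 samples formed 4 groups of 3. Spleen cells from females (Female) or males (Male) had been activated with beads against CD3 and CD28 and with recombinant IL2 for 3 days. WT and KD came from another batch, of male cells only, which were electroporated and then kept in culture for 3 days. In KD the electroporated material was Cas9 plus guide RNA to Kdm5d, a Y-linked gene for a histone H3 lysine demethylase; in WT it was guide RNA alone. No group received Cas9 without the Kdm5d guide. The ages of the mice, how many mice each group drew on, and what the WT guide targeted were not given in the sources used here, so p-values measure only the spread between these samples, which may be technical.

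The protein p53, encoded by Trp53, is kept low in unstressed cells by the ubiquitin ligase Mdm2. DNA breaks, nucleotide shortage and other stresses stabilize it, in part through the kinases Atm, Atr, Chek1 and Chek2. It then binds as a tetramer to paired copies of a short DNA element and raises transcription of genes that halt the cell cycle, start apoptosis, help DNA repair, or restrain p53 itself. In dividing lymphocytes this response is known to limit the survival of cells with broken DNA. Only KD cells received Cas9, so for every difference between KD and WT the effects of lower Kdm5d, of Cas9 and of the DNA break it makes cannot be told apart.

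The p53 element was looked for in the RefSeq promoter table for GRCm38.p6, which had 33 windows for 24 of the 33 genes, each from 250 bases before to 50 bases after a transcript start. The motif was the p53 consensus element, in which each half-site is a run of purines, a C, a pair of A or T bases, a G and a run of pyrimidines. It reads the same on both strands. A full element was called where 2 half-sites with the C and G in place lay at most 3 bases apart with at most 2 mismatches in all. It was present in windows of 6 of the 24 genes (25.0%), against 418 of the 27025 genes in the whole table (1.55%). A perfect half-site was present in 10 of the 24 genes (41.7%), against 9.55% of all genes. A match describes the letters of the window and is not a measured binding site. The genes were listed because p53 is known to activate them, so the higher shares are not a separate result. For the windows of Bbc3, Btg2 and Phlda3 and a window of Psrc1, bases just after the start were not found in an annotated transcript of the gene. The starts of these windows, which had no full element, are therefore uncertain. The 6 promoters with a full element are shown because they carry the p53 element in genes whose values follow. Each runs 5′ to 3′ from 250 bases before the transcript start up to it, leaving out bases in annotated exons (GRCm38 coordinates). Capitals mark the element. Ccng1 and Cdkn1a had 1 mismatch each, and the other 4 had 2 each. Cdkn1a and Sesn1 each had a second window without a full element.
Ccng1, chr11:40755312-40755536, minus strand: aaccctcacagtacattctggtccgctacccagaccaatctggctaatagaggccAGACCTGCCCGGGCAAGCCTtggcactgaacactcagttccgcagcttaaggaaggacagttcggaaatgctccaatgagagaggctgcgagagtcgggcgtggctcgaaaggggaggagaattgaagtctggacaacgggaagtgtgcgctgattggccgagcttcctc
Cdkn1a, chr17:29090729-29090975, plus strand: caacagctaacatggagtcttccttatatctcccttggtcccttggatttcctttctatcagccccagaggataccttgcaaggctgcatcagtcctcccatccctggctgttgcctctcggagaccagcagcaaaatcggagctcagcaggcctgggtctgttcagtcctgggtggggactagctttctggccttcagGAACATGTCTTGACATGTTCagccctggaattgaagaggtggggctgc
Bax, chr7:45466899-45467148, minus strand: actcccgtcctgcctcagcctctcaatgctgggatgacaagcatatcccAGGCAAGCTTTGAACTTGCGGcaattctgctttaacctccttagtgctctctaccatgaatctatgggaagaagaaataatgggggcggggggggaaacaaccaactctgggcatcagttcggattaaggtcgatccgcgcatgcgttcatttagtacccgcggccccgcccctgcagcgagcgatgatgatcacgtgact
Ckap2, chr8:22185820-22186069, minus strand: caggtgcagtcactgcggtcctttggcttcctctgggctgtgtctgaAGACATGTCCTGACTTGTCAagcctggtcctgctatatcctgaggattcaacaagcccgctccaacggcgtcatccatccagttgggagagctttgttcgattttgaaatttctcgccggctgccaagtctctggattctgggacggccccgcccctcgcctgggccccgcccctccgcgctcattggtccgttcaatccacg
Sesn1, chr10:41887189-41887438, plus strand: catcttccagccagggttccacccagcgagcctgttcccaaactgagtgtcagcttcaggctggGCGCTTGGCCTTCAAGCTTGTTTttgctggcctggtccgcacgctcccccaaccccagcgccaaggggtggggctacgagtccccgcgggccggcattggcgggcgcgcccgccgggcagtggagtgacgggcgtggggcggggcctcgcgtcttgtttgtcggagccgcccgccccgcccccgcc
Zfp365, chr10:67912663-67912912, minus strand: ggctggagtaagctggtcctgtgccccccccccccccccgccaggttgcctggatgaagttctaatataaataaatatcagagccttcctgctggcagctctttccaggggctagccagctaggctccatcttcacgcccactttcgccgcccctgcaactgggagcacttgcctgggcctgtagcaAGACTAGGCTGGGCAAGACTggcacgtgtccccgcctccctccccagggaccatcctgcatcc

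Total counts ranged from 78748647 to 110803318 per sample. Expression is given as counts per 1000000 counts of a library (CPM), scaled by the TMM method within each table. Kdm5d was at 48.4, 51.9 and 52.4 CPM in WT and 21.4, 21.8 and 22.9 CPM in KD (log2 fold change -1.21, SE 0.0455, edgeR adjusted p 3.13e-08), and at 0, 0.0213 and 0 CPM in Female and 50.9, 49.5 and 52.2 CPM in Male as labelled. The CD8 T cell label was checked with 8 markers, among them Cd3e and Cd8a, whose summed level was between 2292 and 2767 CPM in every sample. Of 18 markers of other spleen cells, 4 had 0 counts in every sample (Ms4a1, Hbb-bs, Hba-a1 and Siglech) and 12, these 4 included, were below 1 CPM in every sample. Of the 31-base subsequences of Hbb-bs and Hba-a1, 54.4% and 75.5% also occur in transcripts of other genes, so their 0 counts are uncertain. The summed level of the 18 markers was 16.8 to 17.1 CPM in WT, 11.1 to 11.6 in KD, 7.83 to 8.58 in Female and 8.00 to 8.91 in Male. Of the 8 CD8 markers, 6 were called lower in KD, among them Cd247, Lck and Cd3g (log2 fold changes -0.39, -0.36 and -0.35), and 0 were called higher. Over all genes tested 18.4% were called lower and 16.8% higher in KD. Of the same 8, Male had 4 called lower, among them Cd247 (log2 fold change -0.31), and 1 higher, Lck (0.26). In Male 26.3% of all genes tested were called lower and 23.5% higher. Exons of Pou2f1 on the opposite strand cover 56.4% of the exon bases of Cd247. The use of strand in counting was not stated, so the counts of Cd247 are uncertain. Of the other cells' markers 8 passed the filter, and 4 were called lower and 0 higher in KD. These 4 were Xcr1, Klrb1c, Cd68 and Cd79b, at log2 fold changes of -1.41, -0.86, -0.58 and -0.45. Xcr1 had the smallest p (edgeR adjusted p 1.11e-04). Of the 31-base subsequences of Klrb1c, 21.2% also occur in transcripts of other genes. Cd68 and Cd79b were the 2 that passed 5 CPM in any sample. The call of Cd79b was lost without WT replicate 1 or KD replicate 3 (edgeR adjusted p 0.0761 and 0.0606). Between the sexes 2 of 8 were lower in Male and 1 higher. The lower ones were Cd4, at 0.201, 0.149 and 0.195 CPM in Female and 0 counts in each Male sample, and Pf4, a platelet gene, at 1.19, 0.861 and 0.802 CPM in Female and 0, 0 and 0.0226 CPM in Male. Cd68 was the higher one (log2 fold change 0.55). The part of these shifts in the results that follow was not tested. In bulk RNA of this kind, fewer cells of a type and less RNA per cell cannot be told apart.

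Of the 33 p53 target genes, 32 passed the low-count filter in the comparison of KD with WT, and 27 of these rose and 2 fell at an adjusted p under 0.05 (edgeR quasi-likelihood test, Benjamini-Hochberg adjustment over all genes tested). Among all 20413 genes tested, 35.1% were called, 16.8% higher and 18.4% lower. Among the 27 called, the rises ran from the apoptosome gene Apaf1 at a log2 fold change of 0.12 to the sulfatase gene Sulf2 at 2.03. Btg2 and Sesn1 fell, Trp53cor1, Perp and Xpc were not called, and Gdf15 did not pass the filter. Over the 32 tested, the log2 fold change had a median of 0.40, against 0.012 over all genes tested. In 29 of the 32 genes the 3 KD samples lay all above or all below the 3 WT samples, which was so for 46.8% of all genes tested. KD was the higher group in 27 of these 29 (93.1%), against 49.5% of all genes whose groups did not overlap. As a share of genes tested this was 84.4%, against 23.2%. Taking each sample's median ratio to the WT mean over the 32 genes, the KD samples stood at 0.39, 0.39 and 0.37 log2 units and the WT samples at -0.0042, -0.0028 and 0.0014. By role the medians were 0.38 for feedback, 0.35 for arrest, 0.46 for apoptosis and 0.20 for repair.

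**Figure D1:**
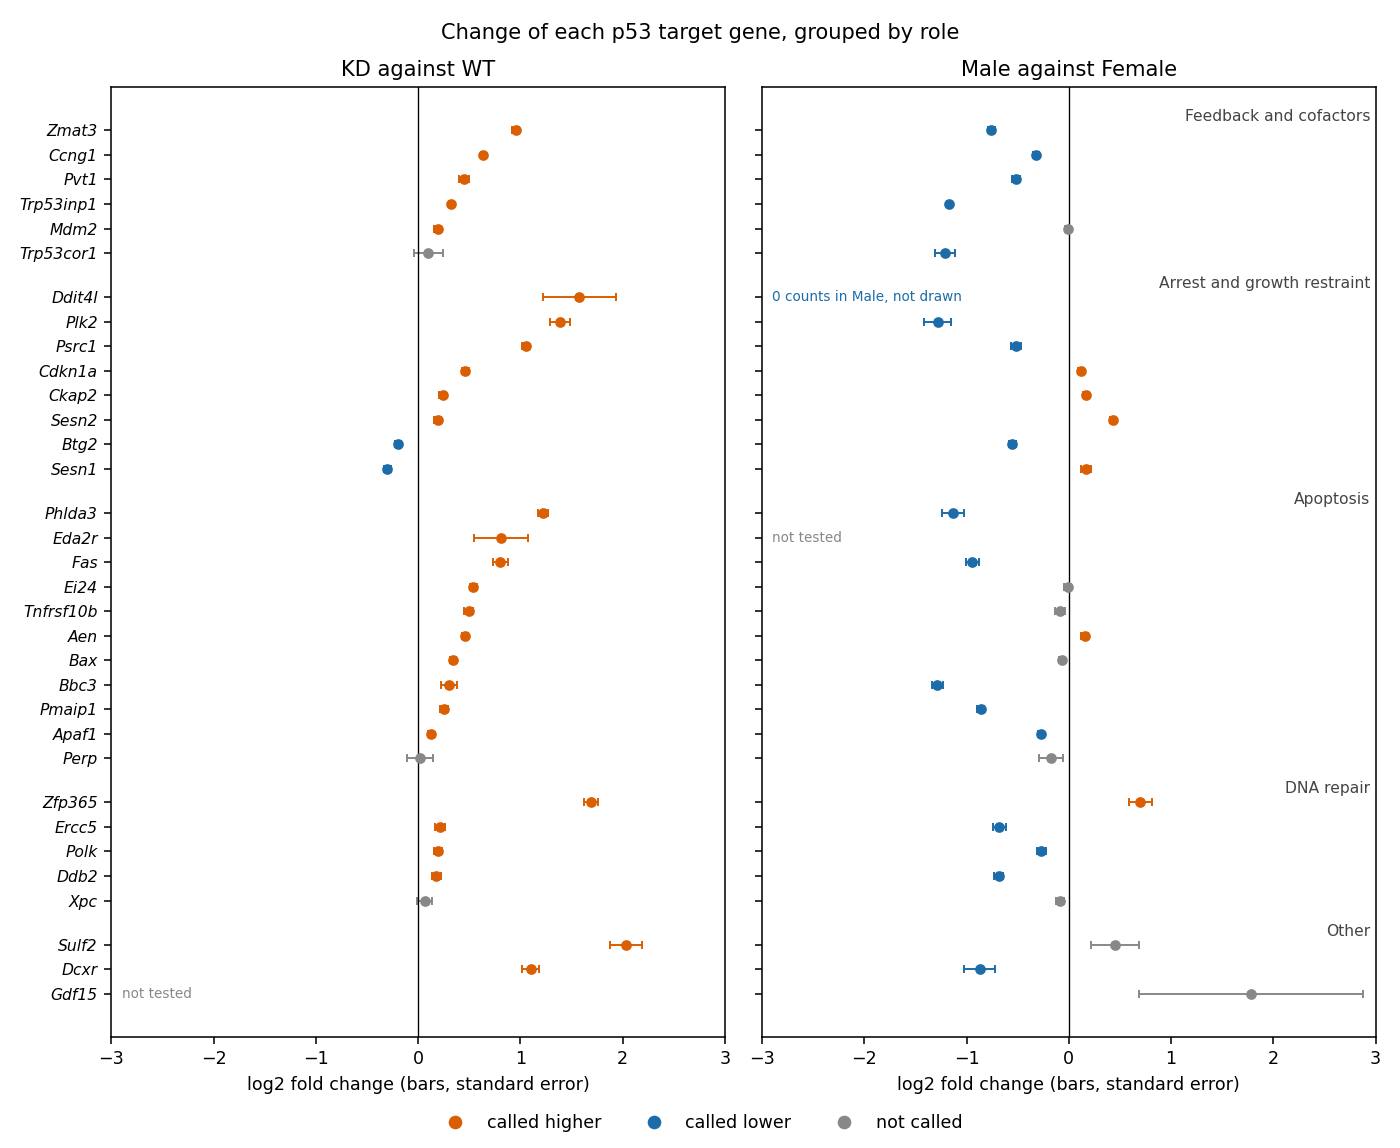
Log2 fold change of each p53 target gene in KD against WT (left) and Male against Female (right), with bars for the standard error, 3 samples a group, grouped by role from top to bottom. On the left 27 genes are called higher and 2 lower; on the right 6 are called higher and 18 lower, Ddit4l being left undrawn because Male had 0 counts.

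Genes that feed back on p53 or work with it rose in KD in 5 of 6 cases, against 16.8% of all genes tested. Ccng1, whose product cyclin G1 brings a phosphatase to Mdm2, was at 456, 453 and 455 CPM in WT and 713, 684 and 715 CPM in KD. All KD samples were above all WT samples, a 1.55-fold rise (log2 fold change 0.63, SE 0.0198, edgeR adjusted p 9.03e-09). Zmat3, an RNA-binding zinc finger protein, was at 98.3, 99.4 and 106 CPM in WT and 197, 193 and 197 CPM in KD. In KD this was a 1.94-fold rise with no overlap (log2 fold change 0.95, SE 0.0302, edgeR adjusted p 9.33e-09). Trp53inp1, a nuclear stress protein that promotes p53 activity and autophagy, was at 247, 246 and 247 CPM in WT and 310.3, 302 and 310.5 CPM in KD, and the groups did not overlap (log2 fold change 0.32, SE 0.0193, edgeR adjusted p 8.22e-07). The long noncoding RNA gene Pvt1, next to Myc, was at 25.3, 28.1 and 26.8 CPM in WT and 38, 35.7 and 36 CPM in KD. KD was again higher in every sample (log2 fold change 0.45, SE 0.0481, edgeR adjusted p 4.31e-05). Mdm2 itself, the ligase that degrades p53, rose by 1.14-fold, from a mean of 108 ± 0.808 to 124 ± 5.03 CPM (SD, n = 3; edgeR adjusted p 9.38e-04). Trp53cor1, the long noncoding RNA lincRNA-p21 transcribed near Cdkn1a at chr17:29057430-29079179 (GRCm38), was at 5.21, 3.98 and 4.67 CPM in WT and 5.89, 4.39 and 4.59 CPM in KD. Its groups overlapped and it was not called (log2 fold change 0.10, SE 0.142, edgeR adjusted p 0.651). KD replicate 1 was the highest of the 6 samples, and without it the log2 fold change was -0.041. Exons of the unnamed gene AC167363.1 on the opposite strand cover 44.1% of its exon bases, and the use of strand in counting was not stated, so its counts are uncertain.

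The arrest and growth restraint genes moved both ways in KD, 6 rising and 2 falling. Cdkn1a, which encodes the cyclin-dependent kinase inhibitor p21 and lies at chr17:29090976-29100727 on the plus strand, was at 237, 233 and 232 CPM in WT and 313, 341 and 313 CPM in KD. Every KD sample was above every WT sample, by 1.38-fold (log2 fold change 0.46, SE 0.0322, edgeR adjusted p 2.23e-06). Plk2, a polo-like kinase that acts on centrioles, was at 4.41, 4.31 and 5.36 CPM in WT and 11.4, 13 and 12.4 CPM in KD, a 2.62-fold rise from a low level (log2 fold change 1.39, SE 0.0977, edgeR adjusted p 2.36e-06). Psrc1, a microtubule-binding protein of the spindle, was at 29.3, 27.9 and 29.7 CPM in WT and 59.8, 59.9 and 60.5 CPM in KD. Its 2.07-fold rise was almost the same in the 3 KD samples (log2 fold change 1.05, SE 0.0366, edgeR adjusted p 1.75e-08). Ckap2, another spindle protein, was at 48, 47.2 and 45.2 CPM in WT and 55.1, 55.1 and 55.7 CPM in KD, a smaller shift without overlap (log2 fold change 0.24, SE 0.0344, edgeR adjusted p 3.46e-04). Of its 31-base subsequences, 10.2% also occur in transcripts of other genes, so reads could be split. Psrc1 and Ckap2 belong to the mitotic machinery, and 9 of 16 listed S, G2 and M phase genes also rose in KD while 1 fell. Over all genes tested 16.8% rose and 18.4% fell. The summed level of those 16 genes was 5115 to 5191 CPM in WT and 5777 to 5817 CPM in KD. Their part in the change of Psrc1 and Ckap2 was not tested.

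The 2 genes that fell both encode brakes on growth. Sesn1, a sestrin that restrains mTORC1 when leucine is short, was at 39.9, 41.8 and 41.3 CPM in WT and 33.7, 32.6 and 33.5 CPM in KD. Each KD sample was below each WT sample (log2 fold change -0.30, SE 0.0366, edgeR adjusted p 1.08e-04). Btg2, an antiproliferative protein that acts with the mRNA deadenylation machinery, was at 69.9, 70.9 and 70.5 CPM in WT and 60.6, 62.9 and 60.6 CPM in KD, also without overlap (log2 fold change -0.20, SE 0.0297, edgeR adjusted p 4.64e-04). The related sestrin Sesn2 went the other way, at 73, 71.8 and 71.7 CPM in WT and 79.1, 84 and 84 CPM in KD (log2 fold change 0.19, SE 0.0321, edgeR adjusted p 0.00103). Ddit4l, an inhibitor of mTORC1, was called higher with few counts, 10 to 28 in WT and 42 to 73 in KD (log2 fold change 1.58, SE 0.359, edgeR adjusted p 0.00627). Sesn2 is also a target of the stress factor ATF4, and of 14 listed ATF4 and CHOP stress genes 6 fell and 3 rose in KD. Over all genes tested 18.4% fell and 16.8% rose. Atf4 itself was at 216, 224 and 228 CPM in WT and 130.3, 132 and 124 CPM in KD (log2 fold change -0.79, SE 0.0298, edgeR adjusted p 3.16e-08). The part of that response in the values of Sesn2, Bbc3, Tnfrsf10b and Gdf15, which it can also induce, was not tested.

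**Figure D2:**
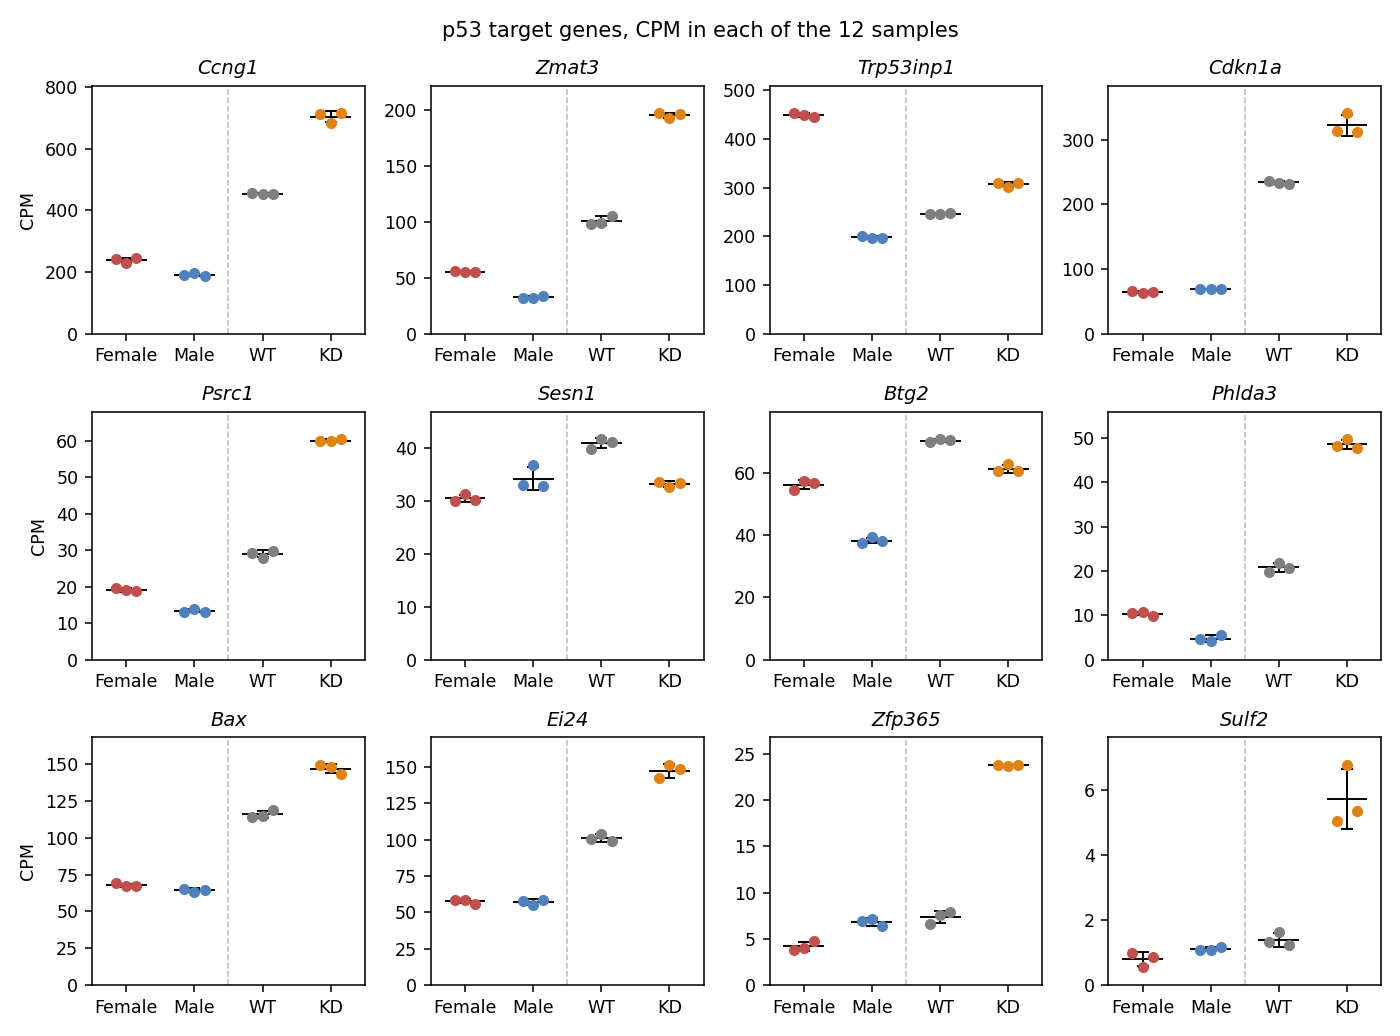
CPM of 12 p53 target genes in each of the 12 samples, on linear axes that start at 0, with a line at the mean and bars of 1 SD (n = 3). The dashed line separates the 2 tables, which were normalized separately; KD stands above WT in 10 of the panels and below it for Sesn1 and Btg2.

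Apoptosis genes rose in KD in 10 of 11 cases, and none fell, against 16.8% and 18.4% of all genes tested. Phlda3, a membrane-binding protein that competes with the survival kinase Akt, was at 19.8, 21.9 and 20.7 CPM in WT and 48.2, 49.7 and 47.7 CPM in KD. This 2.33-fold difference had no overlap (log2 fold change 1.22, SE 0.0449, edgeR adjusted p 2.65e-08). Ei24, an endoplasmic reticulum protein linked to autophagy, was at 100.3, 104 and 99.1 CPM in WT and 142, 151 and 148 CPM in KD, higher in each KD sample (log2 fold change 0.54, SE 0.031, edgeR adjusted p 5.52e-07). Aen, a nuclease that digests DNA and RNA in dying cells, was at 86.5, 84.6 and 85.4 CPM in WT and 114, 118 and 121 CPM in KD (log2 fold change 0.46, SE 0.0288, edgeR adjusted p 1.01e-06). Bax, which forms the pore in the outer mitochondrial membrane, was at 114, 115 and 119 CPM in WT and 149, 148 and 143 CPM in KD. The 1.27-fold rise again left the groups apart (log2 fold change 0.34, SE 0.0272, edgeR adjusted p 5.46e-06). Bax shares 11.1% of its 31-base subsequences with other transcripts, mainly the overlapping gene model Gm45808 on the same strand.

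Death receptors rose as well. Fas, the receptor for Fas ligand, had a mean of 5.46 ± 0.171 CPM in WT and 9.54 ± 0.42 in KD (SD, n = 3), a 1.75-fold rise (edgeR adjusted p 1.70e-05). Tnfrsf10b, the mouse TRAIL receptor, went from 24.7 ± 1.26 to 34.8 ± 1.23 CPM (SD, n = 3; edgeR adjusted p 2.35e-05), and shares 10.8% of its subsequences with other transcripts. Eda2r, the receptor for ectodysplasin A2 at chrX:97333840-97377216 on the X chromosome, had 30 to 44 counts in WT and 53 to 76 in KD (log2 fold change 0.81, SE 0.263, edgeR adjusted p 0.0365). That call was lost in 8 of 15 alternative fits, with an edgeR adjusted p of 0.101 without WT replicate 1, 0.112 without WT replicate 2, 0.0947 without KD replicate 1 and 0.101 without KD replicate 2. Among the mitochondrial triggers, the BH3-only gene Bbc3 (PUMA) was at 14.3, 15.5 and 18.1 CPM in WT and 19, 20.1 and 19.9 CPM in KD (log2 fold change 0.30, SE 0.0782, edgeR adjusted p 0.0123). The related Pmaip1 (Noxa) was at 41.5, 41.4 and 40.9 CPM in WT and 51.9, 48.4 and 47.6 CPM in KD (log2 fold change 0.26, SE 0.0399, edgeR adjusted p 6.18e-04). Neither overlapped between groups. Apaf1, the scaffold of the apoptosome, had the smallest log2 fold change among the apoptosis genes called, 0.12 (edgeR adjusted p 0.00338). These 3 rises were smaller than that of Phlda3, but the differences between genes were not tested. Perp, a desmosome protein, was at 5.44, 5.26 and 6.06 CPM in WT and 6.58, 4.71 and 5.73 CPM in KD, with groups that overlapped (log2 fold change 0.02, SE 0.127, edgeR adjusted p 0.928).

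DNA repair genes rose in 4 of 5 cases, against 16.8% of all genes tested, the largest rise being that of Zfp365. Zfp365, a zinc finger protein that protects fragile sites during replication, was at 6.61, 7.56 and 7.88 CPM in WT and 23.8, 23.7 and 23.8 CPM in KD. The KD samples were nearly identical and the rise was 3.24-fold (log2 fold change 1.70, SE 0.0675, edgeR adjusted p 4.48e-08). Polk, the translesion DNA polymerase kappa, was at 45.4, 46.2 and 44.7 CPM in WT and 51.1, 50.8 and 54.1 CPM in KD (log2 fold change 0.20, SE 0.0369, edgeR adjusted p 0.00211). Ercc5, the endonuclease XPG that cuts beside a lesion, was at 17.3, 17.1 and 17 CPM in WT and 19.2, 19.8 and 20.8 CPM in KD (log2 fold change 0.22, SE 0.0469, edgeR adjusted p 0.00473). Both were higher in each KD sample, by 1.15-fold and 1.16-fold. Of the pair that recognizes ultraviolet lesions, Ddb2 was at 26, 25.3 and 24.2 CPM in WT and 28.6, 27.2 and 29.6 CPM in KD and was called (log2 fold change 0.18, SE 0.0462, edgeR adjusted p 0.0126), and Xpc was at 17.2, 16.6 and 16.8 CPM in WT and 19, 15.6 and 18.3 CPM in KD and was not (log2 fold change 0.063, SE 0.0702, edgeR adjusted p 0.552). The Ddb2 call was lost without WT replicate 3 (edgeR adjusted p 0.0628) and without KD replicate 3 (edgeR adjusted p 0.0553). Exons of Acp2 on the opposite strand cover 23.8% of the exon bases of Ddb2, so part of its count could belong to that gene.

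Of the remaining 3 genes, Sulf2 and Dcxr rose in KD. Sulf2, a sulfatase that trims heparan sulfate outside the cell, was at 1.33, 1.64 and 1.24 CPM in WT and 5.06, 6.79 and 5.36 CPM in KD. This 4.09-fold rise started from a level near 1 CPM (log2 fold change 2.03, SE 0.159, edgeR adjusted p 5.01e-06). Dcxr, a reductase of L-xylulose and dicarbonyls, was at 4.4, 4.63 and 4.53 CPM in WT and 9.18, 10.5 and 9.43 CPM in KD, a 2.15-fold rise with no overlap (log2 fold change 1.10, SE 0.0824, edgeR adjusted p 3.66e-06). Gdf15, a secreted stress cytokine, had between 0 and 13 counts in each WT and KD sample and was not tested.

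Levels of the 33 genes could be set against each other only per length of exon. In WT the highest were Ccng1 at 129, Bax at 73.4 and Cdkn1a at 65.8 CPM per kilobase. The lowest were Ddit4l, Eda2r and Gdf15, at 0.0648, 0.0624 and 0.0447. In Female the order at the top was Trp53inp1 at 69.3, then Ccng1 at 68.1 and Bax at 43 CPM per kilobase. Those that rose by 1 log2 unit or more in KD were Sulf2, Zfp365, Ddit4l, Plk2, Phlda3, Dcxr and Psrc1, which made 7 of 32, against 2.29% of all genes tested. None of these 7 was above 10 CPM per kilobase in WT except Phlda3, at 13.3.

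Male and Female cells, which were not electroporated and received no Cas9, were then compared to see how the same genes stood between the sexes. Of the 32 genes that passed the filter, 18 were called lower and 6 higher in Male, against 26.3% and 23.5% of all 20208 genes tested, where 49.8% were called. Over the 32 genes the median log2 fold change was -0.30, against 0.011 over all genes tested. Holding Ddit4l at its bound given below leaves that gene the lowest of the 32, so this could not move the median. In 28 genes the samples of the 2 groups did not overlap, as in 58.3% of all genes tested, and Male was the higher in 7 of the 28 (25%), against 49.1% of all genes without overlap. As a share of genes tested this was 21.9%, against 28.6%. Of the feedback genes 5 of 6 were lower in Male and 0 higher, with a median log2 fold change of -0.64, and of the 10 apoptosis genes tested 5 were lower and 1 higher, with a median of -0.22. Of the repair genes 3 were lower and 1 higher. The arrest genes split evenly, 4 higher and 4 lower. None of the 6 genes called higher in Male reached a log2 fold change of 1, which 3.46% of all genes tested did.

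The lower genes with the smallest p were Trp53inp1, Bbc3 and Pmaip1. Trp53inp1 was at 452, 448 and 445 CPM in Female and 201, 198 and 196 CPM in Male. Female samples were all above Male samples, by a wide margin (log2 fold change -1.18, SE 0.0193, edgeR adjusted p 3.53e-11). The BH3-only gene Bbc3 was at 52.2, 48.4 and 49.99 CPM in Female and 19.1, 21.9 and 20.9 CPM in Male, lower in each Male sample (log2 fold change -1.28, SE 0.0532, edgeR adjusted p 1.81e-08). Pmaip1, the other BH3-only gene, was at 53.4, 54.9 and 51.8 CPM in Female and 28.7, 29.2 and 30.1 CPM in Male (log2 fold change -0.86, SE 0.036, edgeR adjusted p 1.96e-08). Further genes lower in Male were, on the log2 scale, Plk2 at -1.28 (edgeR adjusted p 1.38e-05), Trp53cor1 at -1.21 (edgeR adjusted p 2.08e-06), Phlda3 at -1.13 (edgeR adjusted p 1.02e-05), Fas at -0.95 (edgeR adjusted p 7.48e-07), Dcxr at -0.87 (edgeR adjusted p 8.21e-04) and Zmat3 at -0.76 (edgeR adjusted p 3.08e-08). The repair genes Ddb2, Ercc5 and Polk were lower in Male too, with log2 fold changes of -0.69, -0.68 and -0.27 (edgeR adjusted p 3.89e-07, 4.70e-06 and 5.04e-04). Btg2, Psrc1, Pvt1, Ccng1 and Apaf1 made up the rest of those with counts in both groups, between -0.56 and -0.27. Ddit4l had 11 to 16 counts in Female and 0 in each Male sample, so that Female was at least 4.5-fold higher if each Male library is put at 3 counts, the limit that a count of 0 allows for counting error only. Eda2r likewise had 8 to 16 counts in Female and 0 in Male, at least 3.71-fold higher by the same limit, and did not pass the filter.

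Among genes that stood higher in Male, Sesn2, Zfp365 and Ckap2 had the smallest p. Zfp365 was at 3.82, 4.01 and 4.76 CPM in Female and 6.9, 7.22 and 6.37 CPM in Male, without overlap (log2 fold change 0.70, SE 0.112, edgeR adjusted p 4.18e-04). Sesn2 was at 65, 65.6 and 65.6 CPM in Female and 85.1, 88.9 and 89.99 CPM in Male (log2 fold change 0.43, SE 0.0272, edgeR adjusted p 4.04e-07), and 9 of the 14 ATF4 and CHOP genes were also higher in Male and 2, Vldlr and Sesn3, lower, with Atf4 at 0.86 (edgeR adjusted p 4.51e-10) on the log2 scale. The part of that response in the value of Sesn2 was not tested. Ckap2 was at 35.3, 34.6 and 34.1 CPM in Female and 39, 38.7 and 39.2 CPM in Male (log2 fold change 0.17, SE 0.0326, edgeR adjusted p 0.00141), beside 13 of 16 S, G2 and M phase genes that were higher in Male and 1, Mki67, that was lower. For this list and the ATF4 and CHOP genes, the shares over all genes tested were 23.5% higher and 26.3% lower. Cdkn1a was at 65.7, 63.4 and 63.9 CPM in Female and 69.5, 70.01 and 69.5 CPM in Male, a difference of 1.08-fold with no overlap (log2 fold change 0.12, SE 0.0253, edgeR adjusted p 0.00333). Aen and Sesn1 were also called higher, at 0.15 (edgeR adjusted p 0.00494) and 0.16 (edgeR adjusted p 0.0172). The Sesn1 call was lost without Female replicate 1, Female replicate 3 or Male replicate 2 (edgeR adjusted p 0.07, 0.0561 and 0.0573). Mdm2, Bax, Ei24, Tnfrsf10b, Perp, Xpc, Sulf2 and Gdf15 were not called, at -0.011, -0.07, -0.012, -0.087, -0.17, -0.09, 0.45 and 1.78. Bax was past the threshold without Male replicate 1 (log2 fold change -0.086, edgeR adjusted p 0.0422), and also with DESeq2 size factors, without a filter and with all 12 samples. Gdf15, at 0 to 19 counts, was past it with limma-voom (adjusted p 0.0427) and without Female replicate 2, the only Female sample with counts of it, which leaves no fold to give (edgeR adjusted p 0.0121).

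Set side by side, the 2 comparisons share no sample. Of the 31 genes tested in both, 26 were called higher in KD, and 16 of these 26 (61.5%) were called lower in Male and 5 (19.2%) higher. Among all 3381 genes called higher in KD and tested in both, 39.4% were called lower and 28.4% higher in Male. Since 26 of the 31 were higher in KD, the 61.5% largely restates that 18 of 32 were called lower in Male. It is not a separate result on opposite changes. The 5 genes higher in both were Cdkn1a, Ckap2, Sesn2, Aen and Zfp365. Of the genes that fell in KD, Btg2 was lower in Male and Sesn1 higher. The size of the change also differed by gene, since Trp53inp1 had 0.32 in KD and -1.18 in Male, Bbc3 0.30 and -1.28, and Ei24 0.54 and -0.012.

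**Figure D3:**
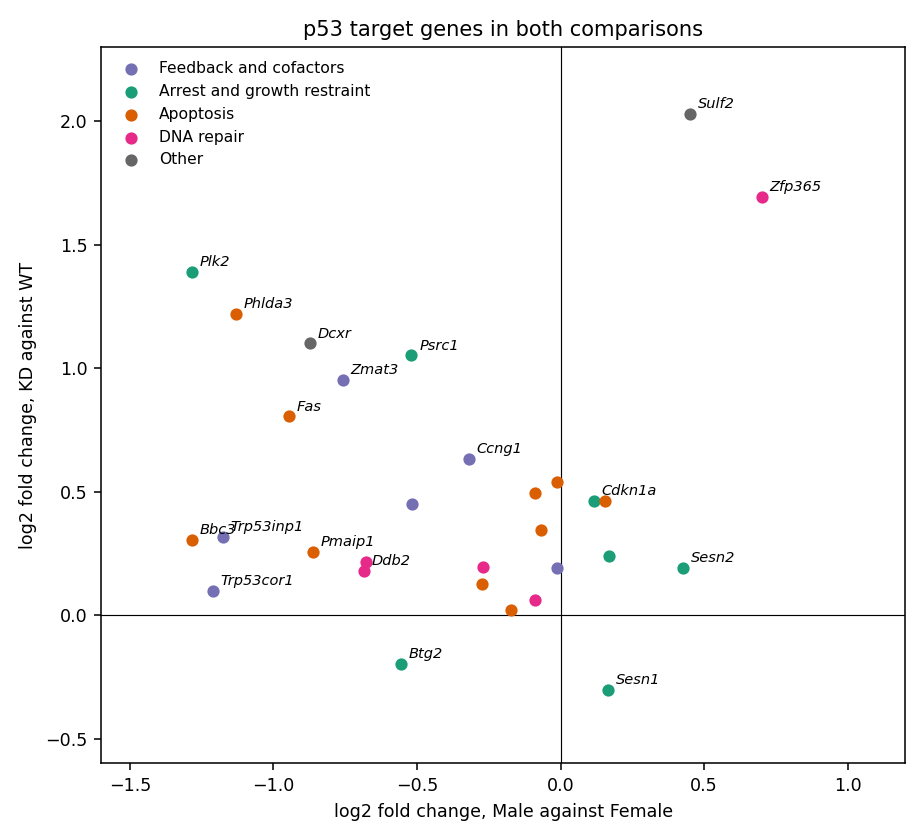
Log2 fold change in KD against WT (vertical) and in Male against Female (horizontal) for the 30 p53 target genes tested in both and counted in both sexes, colored by role. Plk2, Phlda3, Dcxr, Zmat3 and Fas lie at the upper left, higher in KD and lower in Male, while Sulf2 and Zfp365 lie at the upper right.

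Over the 4 groups, KD had the highest mean CPM for 20 of the 31 genes tested in both tables (64.5%), against 25.5% of all 19529 such genes. In 19 of the 31 (61.3%) the 3 KD samples were above all other samples, against 9.7% of all genes. Male had the lowest mean for 19 (61.3%), against 14.4%, and Female the highest for 8 (25.8%), against 34.5%. These shares partly repeat the 2 comparisons. The log2 fold change was above 0 for 30 of 32 genes in KD and for 8 of 32 in Male. Among the 8 highest in Female were Trp53inp1, Trp53cor1 and Pmaip1, and also Bbc3, Fas, Ddb2, Xpc and Ercc5, which were lowest in WT. Cdkn1a was at a mean of 64.3 ± 1.2 CPM in Female and 69.7 ± 0.302 in Male, against 234 ± 2.53 in WT and 322 ± 16.1 in KD (SD, n = 3 each). Ccng1 stood at 239 ± 7.83, 192 ± 3.7, 454 ± 1.7 and 704 ± 17.2 CPM in the same order, so that WT was also above both groups that were not electroporated. Phlda3 stood at 10.4 ± 0.395, 4.73 ± 0.706, 20.8 ± 1.03 and 48.5 ± 1.05 CPM. Sesn2 had its highest mean in Male, at 88 ± 2.58 CPM, and Btg2 and Sesn1 theirs in WT. The tables were normalized separately, no test was made across them, and electroporation and batch cannot be told apart in these levels.

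The genes that control p53 moved in both directions. Of 22 listed, 20 were found by symbol, and 18 of these passed the filter. In KD 7 rose and 4 fell, with a median log2 fold change of 0.032. The shares over all genes tested were 16.8% and 18.4%. Trp53 was at 134, 132 and 128 CPM in WT and 169, 177 and 166 CPM in KD, higher in each KD sample (log2 fold change 0.37, SE 0.0297, edgeR adjusted p 5.66e-06), and 10.1% of its 31-base subsequences occur in other transcripts, mainly its pseudogene. Mdm4, the partner of Mdm2 that blocks p53 activity, was at 250.5, 250.3 and 249 CPM in WT and 288, 279.7 and 288 CPM in KD (log2 fold change 0.19, SE 0.0197, edgeR adjusted p 3.57e-05), and shares 13.6% of its subsequences, mainly with a pseudogene. The kinase gene Atm, which senses double-strand breaks, was at 0.14 (edgeR adjusted p 0.00167) on the log2 scale. Cdkn2a, which encodes the cell cycle inhibitor p16 and the Mdm2 inhibitor p19Arf from overlapping frames, fell from 48.2, 50.1 and 51.6 CPM in WT to 14.5, 15.6 and 15.7 CPM in KD (log2 fold change -1.71, SE 0.0467, edgeR adjusted p 4.01e-09). The gene count does not separate its 2 products. Daxx and Ep300, a chaperone of histone H3 and a histone acetyltransferase that acts on p53, had log2 fold changes of -0.45 (edgeR adjusted p 5.26e-06) and -0.28 (edgeR adjusted p 5.28e-06). Between the sexes 6 of the 18 were higher and 9 lower in Male, against 23.5% and 26.3% of all genes tested. On the log2 scale Trp53 was at 0.11 (edgeR adjusted p 0.00536), Mdm4 at -0.20 (edgeR adjusted p 9.42e-06) and Cdkn2a at 1.17 (edgeR adjusted p 6.64e-06). Trp63 and Trp73, the relatives of p53, did not pass the filter in either comparison.

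A further 28 genes known as p53 targets, outside the 33, gave 26 that passed the filter. In KD 14 of the 26 rose and 3 fell, against 16.8% and 18.4% of all genes tested, with a median log2 fold change of 0.26. In Male 3 were higher and 15 lower, against 23.5% and 26.3% of all genes tested, with a median of -0.39. Gtse1, a microtubule protein that shuttles p53 out of the nucleus, was at 86.8, 89.9 and 84.3 CPM in WT and 156, 158 and 162 CPM in KD (log2 fold change 0.87, SE 0.0295, edgeR adjusted p 1.54e-08). Slc19a2, a thiamine transporter, and Pidd1, the death domain protein that activates a caspase, rose by 0.82 and 0.63 on the log2 scale (edgeR adjusted p 1.17e-07 and 2.59e-07). Those that fell were Ppp1r13b, a p53 cofactor, at -0.35 (edgeR adjusted p 2.94e-04), Rrm2b, a ribonucleotide reductase subunit, at -0.28 (edgeR adjusted p 0.014), and Trp53i11 at -0.11 (edgeR adjusted p 0.0497). The Rrm2b call was lost without WT replicate 2 or KD replicate 3 (edgeR adjusted p 0.0637 and 0.053). Leaving out WT replicate 1, 2 or 3, or KD replicate 1 or 3, ended the Trp53i11 call (edgeR adjusted p 0.0852, 0.162, 0.0905, 0.169 and 0.156). Of the S, G2 and M phase genes, Top2a, Pcna and Rrm2 had log2 fold changes of 0.30, 0.31 and 0.21 in KD and the mitotic cyclin gene Ccnb2 of -0.33 (edgeR adjusted p 4.33e-07, 9.65e-07, 4.48e-06 and 2.53e-05). Pcna and Rrm2 share 23.3% and 12% of their 31-base subsequences with other transcripts.

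**Figure D4:**
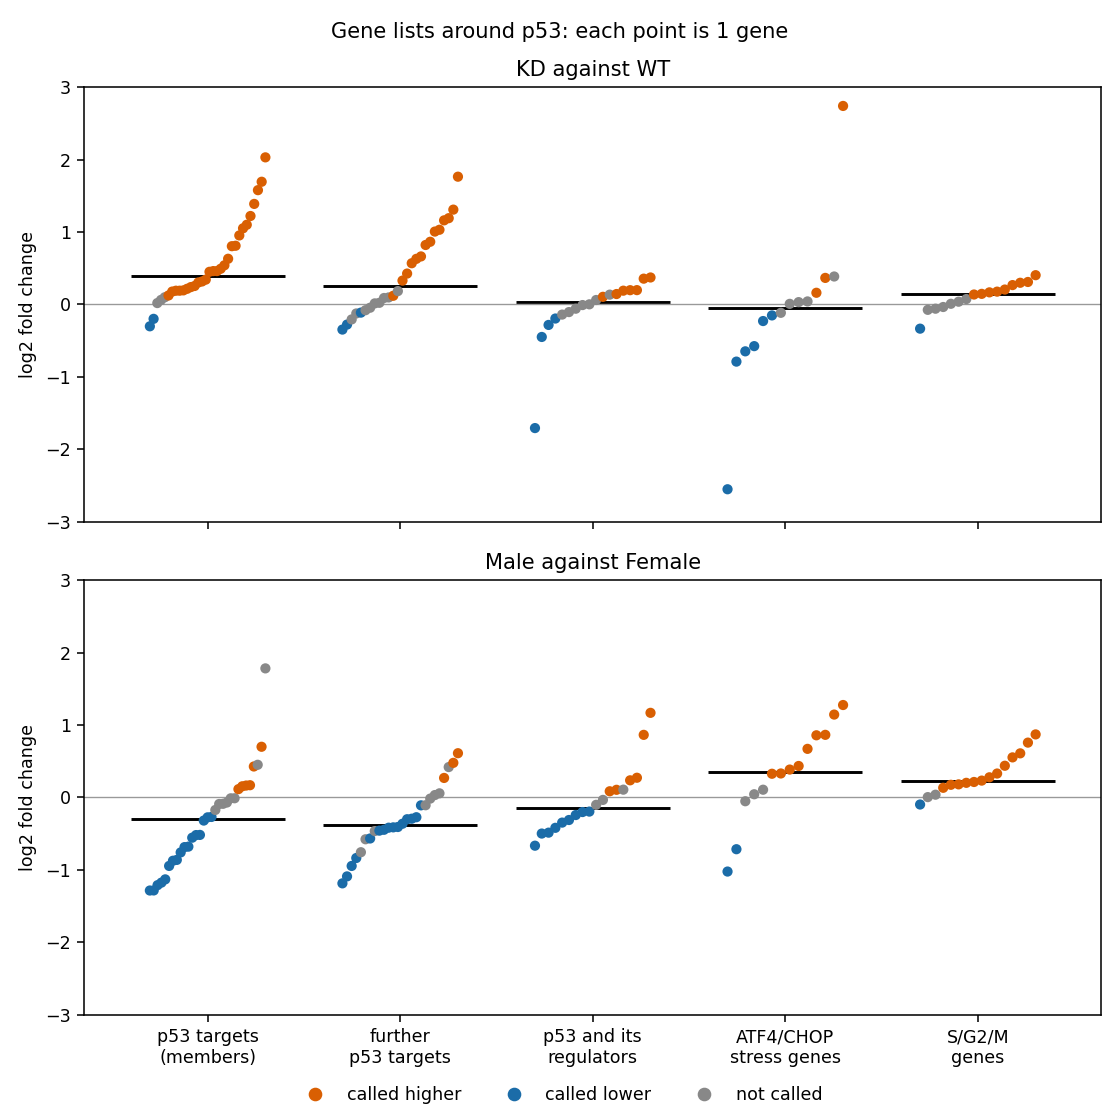
Log2 fold change of every tested gene in 5 lists, in KD against WT (top) and Male against Female (bottom), with a line at each list's median and colors for the call; Ddit4l is counted in the median but not drawn at the bottom. In the top panel 27 of 32 p53 targets and 14 of 26 further targets are called higher, against 16.8% of all genes tested. In the bottom panel 18 and 15 are called lower, against 26.3%.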

How the data were processed

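RNA was measured in 12 samples by ribosome-depleted, stranded total RNA sequencing, per the labels. The authors deposited whole-number counts per gene identifier in 2 tables. HISAT2, StringTie, DESeq2, bcl2fastq 2.20.0 and mm10 are named in the submitters' processing notes, and the counting step, annotation and use of strand are not given in the sources used here. Of 55487 identifiers, 260 are not in GENCODE M21, which gave names, positions and exon lengths.

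The 6 samples of each table were fitted by themselves in edgeR 4.0.16 (R 4.3.3) after filterByExpr and TMM scaling. Genes were called by the quasi-likelihood test where the Benjamini-Hochberg adjusted p was under 0.05. The fit was also run on simulated counts with planted changes of 1 log2 unit. These were larger than most changes given here, so that run does not test calls of small changes. The SE is the log2 fold change divided by the root of F. DESeq2 1.42.0, limma 3.58.1 and other filters and scalings were alternatives.

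The 33 genes and all lists were chosen with earlier results of these data known. Values of every sample were given, in each role list, for up to 4 genes with the smallest p in KD against WT, for called genes that moved against most of the 33, and for the 3 with the smallest p in each direction between the sexes. From other lists up to 3 genes in each direction with the smallest p were named, with Trp53, Mdm4 and Kdm5d. Xpc, Perp, Trp53cor1, Fas, Mdm2 and other genes given in more detail were chosen after their values were seen.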

Additional observations from a re-analysis of the deposited data

How the results depend on the processing

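The median change of the p53 targets was above 0 in KD and below 0 in Male in every alternative run. In KD against WT the count of 29 called was 26 at an adjusted p under 0.01 and 7 when a change of 1 log2 unit was required, and leaving out 1 sample gave 28 to 28. In Male against Female the count of 24 was 6 with that minimum and 23 to 25 with 1 sample left out. The median log2 fold change of 0.40 in KD became 0.43 with upper-quartile scaling, 0.34 without a filter, 0.35 with a minimum mean log2 CPM of 1, 0.34 with all 12 samples in 1 fit and 0.33 to 0.42 with 1 sample left out. That of -0.30 in Male became -0.33 without a filter, -0.325 with DESeq2, -0.34 with all 12 samples, -0.32 with libraries thinned to the smallest, and -0.33 to -0.29 with 1 sample left out. Changed filters test other genes, and the cause of the other shifts was not tested.

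Signs turned only in genes near 0, and the cause was not tested. In KD against WT, Perp was at -0.010 with limma-voom. In Male against Female, with the minimum mean log2 CPM of 1, Mdm2, Ei24 and Rrm2b were at 0.017, 0.017 and 0.013, and Cd3g was at -0.0025 without a filter and -0.010 with all 12 samples. With 1 sample left out, Perp ran from -0.099 to 0.14 and Trp53cor1 from -0.041 to 0.19 in KD, and Mdm2 from -0.039 to 0.0016, Ei24 from -0.033 to 0.011, Rrm2b from -0.046 to 0.014 and Cd3g from -0.0071 to 0.023 in Male. Of the p53 targets tested, 28 of 32 in KD and 27 of 32 in Male kept call and direction in every alternative fit that tested them. Some fits did not test Ddit4l, or Sulf2 in Male.

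Groups share replicate numbers. Deviations of same-numbered samples from their group means had correlations of 0.21, -0.19 and 0.19 in KD and WT. In Male and Female these were 0.025, -0.060 and 0.067. WT replicates 1 and 3 each correlated best with the KD replicate of the same number, and WT replicate 2 did not. With 3 samples a group, this cannot show whether same-numbered samples share a mouse or culture. With the replicate block, 28 genes were called in KD, 26 higher and 2 lower, at a median of 0.40, and 24 in Male, 6 higher and 18 lower, at -0.30. Gdf15, Eda2r and Ddit4l had few counts, 0 to 76 a sample.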

Other observations

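The ATF4 and CHOP genes, which overlap in function with the p53 response through stress-induced growth arrest, were not uniform in KD. Of the 14, 6 were called lower and 3 higher, against 18.4% and 16.8% of all genes tested. Trib3, a pseudokinase induced by ATF4, and Asns, asparagine synthetase, fell with Atf4, by log2 fold changes of -0.65 (edgeR adjusted p 5.37e-07) and -0.58 (edgeR adjusted p 2.60e-06). Chac1 had the largest fall of the 14 (log2 fold change -2.55, edgeR adjusted p 2.53e-05). It was at 3.28, 3.37 and 3.13 CPM in WT and 0.813, 0.368 and 0.508 CPM in KD. Vldlr, a lipoprotein receptor, was at 0.119, 0.124 and 0.134 CPM in WT and 0.813, 0.838 and 0.891 CPM in KD, a 6.69-fold rise without overlap (log2 fold change 2.74, SE 0.263, edgeR adjusted p 2.11e-05). Its counts were few, 12 to 91 a sample. Phgdh, the first enzyme of serine synthesis, rose by 0.16 (edgeR adjusted p 0.00125) on the log2 scale, but 55.9% of its 31-base subsequences occur in other transcripts, mainly pseudogenes, so its counts are uncertain. Atf3, a stress factor induced by both pathways, was called at 0.37 (edgeR adjusted p 0.038), a call lost in 7 of 16 alternative fits, among them those without WT replicate 1 or 2 or any 1 KD replicate (edgeR adjusted p 0.07 to 0.127). Between the sexes Trib3 and Asns had log2 fold changes of 0.33 (edgeR adjusted p 1.03e-06) and 0.33 (edgeR adjusted p 3.66e-06) in Male, and Vldlr of -1.02 (edgeR adjusted p 2.01e-04). The summed level of the 14 genes was 1300 to 1326 CPM in WT, 1139 to 1181 in KD, 1676 to 1695 in Female and 2256 to 2279 in Male.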
